A study of Mus musculus with 2 samples.

Results

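Cyp26b1 encodes a cytochrome P450 enzyme that degrades retinoic acid, and it was examined together with 9 other genes of the same pathway in dendritic cells with and without the microRNA miR-155. The group of 10 genes held Cyp26b1 and Cyp26a1, which degrade retinoic acid, Aldh1a2 and Rdh10, which make it from retinol, Dhrs3, which turns its precursor retinaldehyde back to retinol, and the receptor genes Rara, Rarb, Rarg, Rxra and Rxrb. Its members were all probe sets that the platform annotation assigns to exactly 1 gene bearing one of these symbols, which gave 14 probe sets for 10 of the 18193 genes named on the array. Cyp26b1 was selected on its difference in signal between the arrays compared here, and the other members for their place in the pathway, so the values below are a description and no test was made on them. The wild-type array came from C57BL/6J mouse bone marrow cells grown for 7 days with 20 ng/ml GM-CSF, a growth factor that yields dendritic cells, and then given 10 ng/ml of the bacterial product lipopolysaccharide (LPS), which activates them. The knockout array came from miR-155-/- bone marrow of the same strain handled in the same way. Each genotype was represented by 1 array, both received LPS, and the structure of the knockout allele, the number of mice behind a sample and the hours with LPS were not given in the sources used here.

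Retinoic acid is made from retinol (vitamin A) by a reversible oxidation to retinaldehyde followed by an irreversible oxidation, and enzymes of the CYP26 family clear it. It acts by binding retinoic acid receptors (RARs), which pair with retinoid X receptors (RXRs) on DNA repeats of a short motif and switch target genes on. Dendritic cells of the gut are known for making retinoic acid through Aldh1a2, which imprints gut homing on T cells and favours regulatory T cells, and GM-CSF is a known inducer of Aldh1a2 in dendritic cells.

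The sequence missing from the knockout cells is that of miR-155, shown here because it defines the comparison; its guide strand lies at chr16:84714143-84714165 on the plus strand (RefSeq, GRCm38.p6). The seed, bases 2 to 8, is in capitals.

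mmu-miR-155-5p: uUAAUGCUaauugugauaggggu

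Transcript sequences of the members were not used here, so no search for matches to this seed was made. Promoter windows of 300 bases, from 250 bases before to 50 bases after the gene start, were found in RefSeq (GRCm38.p6) for 9 of the 10 genes, all but Rdh10. They were searched on both strands for the half-sites that RAR and RXR pairs recognise (the consensus AGGTCA and its variants, which are AGTTCA as well as GGGTCA and also GGTTCA) and for direct repeats of any 2 of these half-sites with spacers of 1, 2 or 5 bases. Both CYP26 genes and Rarb are shown, because the members differ in this feature. The windows are chr6:84593761-84594060 on the minus strand for Cyp26b1, chr19:37697558-37697857 on the plus strand for Cyp26a1 and chr14:16575427-16575726 on the minus strand for Rarb, each printed along its gene's strand, with half-sites in capitals.

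Cyp26b1 promoter: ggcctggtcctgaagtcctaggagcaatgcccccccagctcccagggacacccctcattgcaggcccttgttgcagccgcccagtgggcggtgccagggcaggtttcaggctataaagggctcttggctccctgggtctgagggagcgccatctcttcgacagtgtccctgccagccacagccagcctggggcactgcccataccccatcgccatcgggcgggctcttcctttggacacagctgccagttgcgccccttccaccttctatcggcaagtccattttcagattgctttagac

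Cyp26a1 promoter: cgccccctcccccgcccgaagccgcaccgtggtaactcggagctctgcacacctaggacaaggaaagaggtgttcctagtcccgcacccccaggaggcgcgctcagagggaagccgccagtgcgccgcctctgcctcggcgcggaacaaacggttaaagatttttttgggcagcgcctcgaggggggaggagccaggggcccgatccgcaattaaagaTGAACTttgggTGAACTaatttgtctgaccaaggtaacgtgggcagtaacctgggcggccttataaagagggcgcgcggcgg

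Rarb promoter: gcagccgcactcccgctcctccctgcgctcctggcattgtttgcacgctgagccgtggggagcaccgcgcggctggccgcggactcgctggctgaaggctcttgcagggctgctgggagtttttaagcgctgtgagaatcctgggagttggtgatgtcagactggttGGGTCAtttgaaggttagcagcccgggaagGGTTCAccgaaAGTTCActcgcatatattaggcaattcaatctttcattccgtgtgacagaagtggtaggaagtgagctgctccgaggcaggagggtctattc

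A direct repeat with a spacer of 5 bases, the classical retinoic acid response element, was found in the windows of Cyp26a1, where it begins 32 bases before the gene start and reads along the opposite strand, and of Rarb, where it begins 53 bases before the gene start. This repeat occurred in 32 of 32851 promoter windows of all genes (0.0974%). The spacer of 1 base occurred in 0.222% and that of 2 bases in 0.268% of them, and in no window of a member. The Cyp26b1 window held no half-site, and neither did any window of Aldh1a2, Dhrs3 or Rxrb. Of all windows 43.7% held at least 1. A match is a description of these letters and says nothing on binding in these cells.

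The deposited signals had no common scale. Their median over 45037 probe sets other than controls was 58.4 on the wild-type and 78.3 on the knockout array, so values below were quantile normalized, which gives both arrays the same distribution. A floor was set at the median normalized intensity of 67.6. A gene was measured where at least 1 array lay above it, and a difference with the other array at or below it is a bound. All differences are log2 values of the knockout minus the wild-type signal and stand relative to the bulk of genes. Without scaling, the median measured gene was itself higher in the knockout by 0.54, with scaling on 18 hybridisation controls by 0.23, and with centring on the median by 0.14. The only error that the arrays hold is how far probe sets for 1 gene disagreed, with an SD of 0.29 in log2 units, which contains no variation between mice or cultures. The host gene of miR-155, Mir155hg, had a normalized signal of 1136 on the wild-type and 159 on the knockout array, in the direction of the labels. Control probe sets for 18S ribosomal RNA were brighter on the knockout array (389.2 to 581.9, as deposited) than on the wild-type array (95.1 to 126.1), and the part of this gap in the results below was not tested.

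Of enzymes that degrade retinoic acid, Cyp26b1 had a normalized intensity of 178 in the wild type and 763 in the knockout (deposited values 147 and 950). The knockout array was the higher one, by 2.10 on the log2 scale or 4.29-fold, and both arrays lay well above the floor. The wild-type signal was brighter than 71.4% and the knockout signal brighter than 90.3% of all probe sets on the same array. Among 11878 measured genes this was the difference ranked 3 from the highest, and those above it were bounds of genes at or below the floor in wild-type cells. Among the 500 measured genes nearest to Cyp26b1 in mean level, the central 95% of differences ran from -0.63 to 0.76. Cyp26b1 was read by 1 probe set, so no second probe set bears on its value. Cyp26a1, the CYP26 enzyme most widely known as a retinoic acid target, had a normalized intensity of 4.38 in the wild type and 10.1 in the knockout. Both values lay far below the floor, so no fold is given and Cyp26a1 was the only member not measured.

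**Figure D1:**
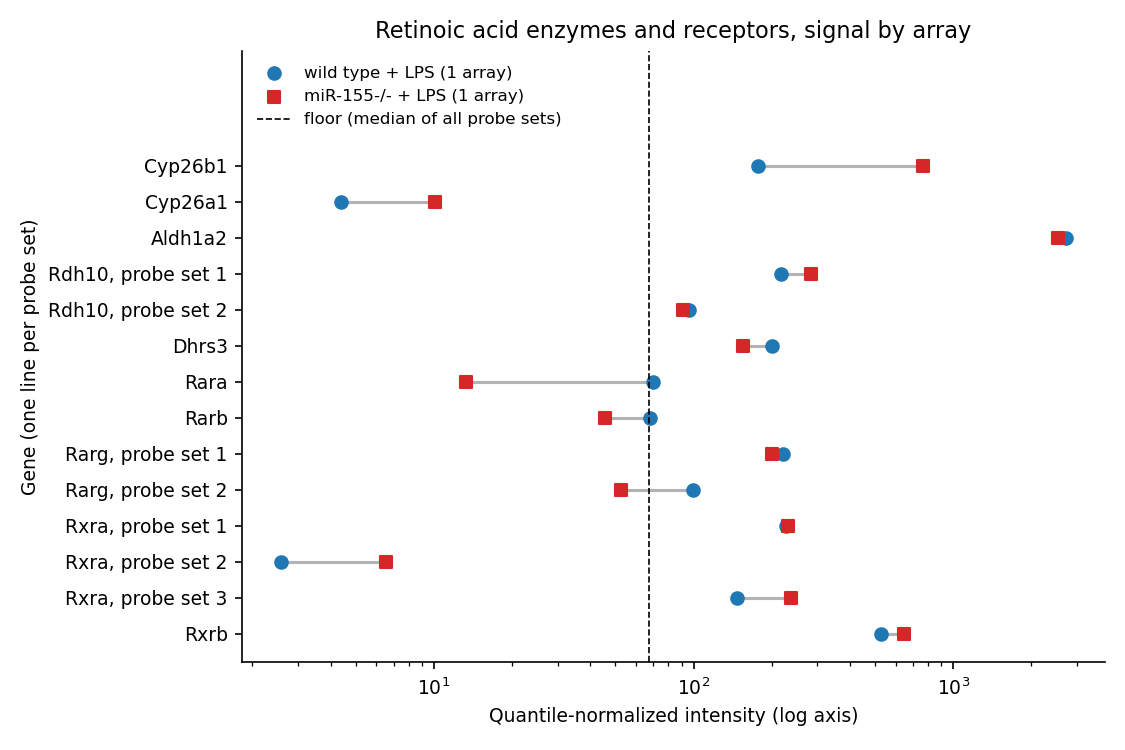
Quantile-normalized intensity (log axis) of each of the 14 probe sets of the 10 genes, with a circle for the wild-type and a square for the knockout array and a dashed line at the floor of 67.6. Cyp26b1 runs from 178 to 763, while Aldh1a2 lies at 2709 and 2530 and Cyp26a1 far below the floor on both arrays.

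Aldh1a2, Rdh10 and Dhrs3, which set the supply of retinoic acid, differed less. Aldh1a2, the retinaldehyde dehydrogenase that carries out the irreversible last step, had a normalized intensity of 2709 in the wild type and 2530 in the knockout, brighter than 97.3% and 97.0% of the probe sets of each array. Its difference was -0.099, within the probe set SD, and it was 0.061 with centring on the median, 0.16 with scaling on hybridisation controls and 0.48 in the deposited values, so its sign depends on the scaling. Aldh1a2 transcript was thus bright on both arrays, and its difference lay within 0.11 of the median gene under each of these scalings.

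Rdh10, the retinol dehydrogenase of the first oxidation, had 2 probe sets. The brighter one read 218 for wild type and 284 for the knockout, a difference of 0.38 or 1.30-fold. The other read 96.2 and 91.0, a difference of -0.080. The probe sets thus did not share a direction, and their mean was 0.15. Dhrs3, the reductase that returns retinaldehyde to retinol and so opposes Rdh10, read 200.1 for wild type and 154.6 for the knockout. Its difference of -0.37 (1.29-fold lower) became 0.17 in the deposited values, still under the shift of 0.54 of the median gene. Both the brighter Rdh10 probe set and Dhrs3 lay slightly beyond the probe set SD, as did 32.7% of all measured genes.

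The receptors of retinoic acid itself gave signals near or moderately above the floor. Rarg, which encodes a further RAR and was the only RAR gene above the floor on both arrays, read 220.2 for wild type and 200.1 for the knockout at the probe set used, a difference of -0.14 that was 0.09 with scaling on hybridisation controls and 0.42 in the deposited values. The other Rarg probe set read 99.7 and 52.8, below the floor in the knockout, which makes it at least 1.48-fold lower. Rara, which encodes the RAR most widely expressed in myeloid cells, read 69.9 for wild type and 13.3 for the knockout. Rarb, whose promoter holds the response element shown above, read 68.1 and 45.4. The wild-type signals of Rara and Rarb lay just above the floor of 67.6 and the knockout signals below it, so they could count only as lower, by at least 1.03-fold and 1.01-fold. Without a floor Rara had a difference of -2.39 and Rarb one of -0.58, between signals at or below about the level of the median probe set.

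Among the RXR genes, which encode the partners of RARs and of several other nuclear receptors, Rxrb read 528 for wild type and 647 for the knockout, a difference of 0.29 or 1.22-fold, equal to the probe set SD. Rxra had 3 probe sets. The one used read 226.9 and 231.5, a difference of 0.029. A second read 147.5 and 238.1, a difference of 0.69 or 1.61-fold, and the last read 2.59 and 6.54, below the floor on both arrays. The measured Rxra probe sets shared a sign but differed in size by more than the probe set SD, and their mean was 0.36.

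**Figure D2:**
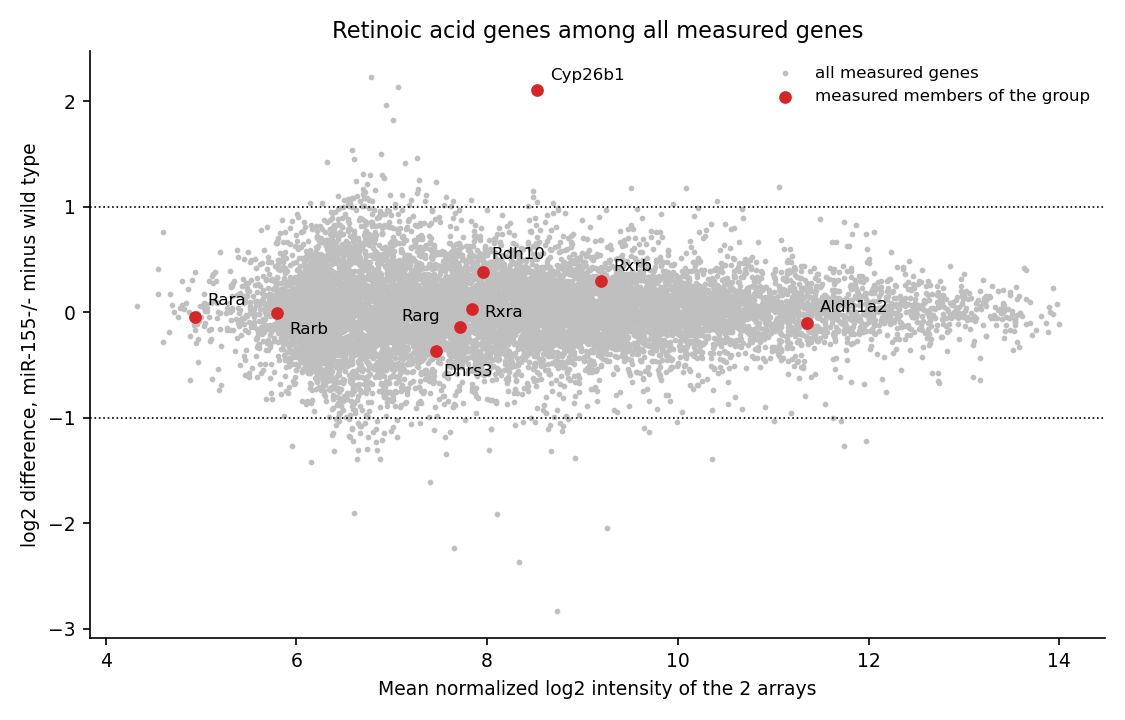
Difference between knockout and wild type (log2, vertical axis) against the mean normalized log2 intensity of both arrays (horizontal axis), with all 11878 measured genes in grey, the 9 measured members in red and dotted lines at 2-fold. Cyp26b1 lies at 2.10, and the other members lie between -0.37 and 0.38.

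Of the 10 genes, 9 were measured and 7 lay above the floor on both arrays. Cyp26b1 alone passed 2-fold, 1 of 9 measured members, and 1.19% of all measured genes passed it (0.572% as higher and 0.615% as lower); as the comparison chose Cyp26b1, nothing is read from this count. Of the measured members 4 were higher and 5 lower in the knockout, with a median of -0.011 beside 0.010 for all measured genes. Of all measured genes 51.5% were higher. The other 8 measured members had differences from -0.37 to 0.38 and a median of -0.029. In the deposited values, all 7 members that were then measured were higher, at a median of 0.59 beside 0.54 for all genes. With scaling on hybridisation controls 6 of 7 were, at a median of 0.26 beside 0.23. The Cyp26b1 difference was 2.69 in the deposited values, 2.36 with scaling on hybridisation controls, 2.27 with centring on the median and 2.10 with loess, and it lay 2.09 to 2.15 above the median gene under these scalings and quantile normalization.

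**Figure D3:**
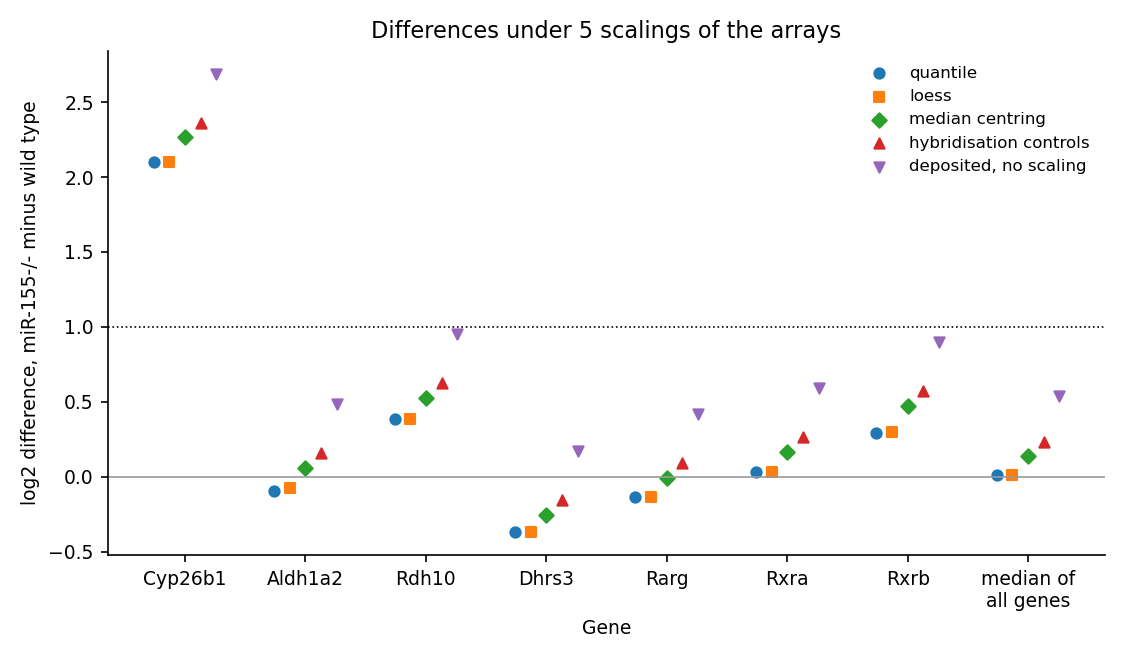
Difference between knockout and wild type (log2) of the 7 members above the floor on both arrays and of the median measured gene under 5 scalings of the arrays, one symbol per scaling, with a dotted line at 2-fold. Cyp26b1 lies between 2.10 and 2.69, and the other members shift with the median gene, which lies between 0.010 and 0.54.

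Other genes of the pathway were taken from lists written from general knowledge. Their counts of higher and lower genes stand beside 51.5% higher among all measured genes. Of 39 genes of retinoid supply, transport and metabolism, 36 were found on the array and 17 were measured, 4 of them as bounds. Of the 17, 7 were higher, 10 lower and none past 2-fold, with a median of -0.033. The largest difference was that of Cyp1b1, a cytochrome P450 that can oxidise retinol and retinaldehyde, at 236.5 for wild type and 118.6 for the knockout (-0.995, 1.99-fold lower), with its other probe set lower too by at least 0.45. Adh1, an alcohol dehydrogenase that can oxidise retinol, read 119.6 and 58.3, at least 1.77-fold lower. Retsat, which saturates retinol, read 20.1 and 100.3, at least 1.48-fold higher, and Dgat1, which can store retinol as an ester, had a difference of -0.41 with 2 of 2 probe sets lower. Fabp5, a carrier of retinoic acid that delivers it to the receptor PPAR delta, was bright on both arrays (10399 and 10562), with a difference of 0.022 at the probe set used and -0.26 at the other. In the deposited values 15 of the 17 were higher, at a median of 0.35 under the 0.54 of the median gene. With scaling on hybridisation controls 10 were, at a median of 0.026 under 0.23.

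Of 17 further receptor genes and coregulators, 15 were on the array and 13 measured. Their differences ran from -0.39 to 0.18 with a median of -0.063, 6 higher and 7 lower, and none passed 2-fold. Hdac3, the histone deacetylase of the corepressor complex, had the largest one (-0.39, 358.7 against 274.6). Tbl1x, another subunit of that complex, had -0.32 with 2 of 3 probe sets lower and 0.73 at the other (79.8 and 132.7). Med1, a Mediator subunit that binds nuclear receptors, had -0.25 with 5 of 5 probe sets lower. The Med1 values included a difference of -0.0028 and bounds at wild-type signals of 77.1 and 69.4, which could count only as lower. Carm1, a coactivating arginine methyltransferase, had 0.18. With centring on the median 10 of the 13 were higher, at a median of 0.118 beside 0.138 for the median gene. In the deposited values 13 of 13 were, at a median of 0.542 beside 0.538. The counts for this list thus depend on the scaling, and its median lay near that of all genes in both settings.

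Of 13 other nuclear receptors that pair with RXRs, 12 were on the array and 8 measured, 1 of them as a bound. Of the 8, 3 were higher, 5 lower and none past 2-fold, with a median of -0.21. Nr4a2, an orphan receptor induced by activation, read 289.7 for wild type and 159.9 for the knockout (1.81-fold lower), and 4 of 4 probe sets were lower. Vdr, the vitamin D receptor, read 517.9 and 295.9 (1.75-fold lower), with 2 of 2 probe sets lower. Nr4a1, a relative of Nr4a2, had a difference of -0.52, and Thra, a thyroid hormone receptor, one of 0.55 with 2 of 2 probe sets higher. In the deposited values 6 of the 8 were higher and the median was 0.064, against 0.54 for the median gene.

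Genes reported to respond to retinoic acid in various cells were lower in 8 and higher in 4 of 12 measured cases, of 26 listed and 23 on the array. Of the 12 cases 1 was a bound, and 51.5% of all measured genes were higher. Their median was -0.099 and none passed 2-fold. Tgm2, a transglutaminase and a widely used marker of the response, read 3080 for wild type and 1992 for the knockout, 1.55-fold lower, with 5 of 5 probe sets lower. Nrip1, a receptor-binding corepressor, read 858.5 and 499.1, 1.72-fold lower, with 4 of 4 probe sets lower. Stra8 had a difference of 0.25 at a low signal (105.0 and 124.6). Rai14 had one of -0.20 with 3 of 4 probe sets lower and 0.30 at the other. With centring on the median the list had 7 higher and 5 lower, and with scaling on hybridisation controls 10 higher and 2 lower, medians of 0.059 and 0.16 beside 0.14 and 0.23 for the median gene. With the floor at the 75th percentile 6 of 6 were lower, at a median of -0.19 beside 0.016 for the median gene. With the mean of all probe sets 10 of 14 were, at a median of -0.12 beside 0.0041. In that setting 105 of 11914 measured genes passed 2-fold, and 1 of the 14. The latter was Meis1, a homeobox gene, at 142.9 and 26.2 on 1 probe set, and it was not measured at the probe set used. The signs for this list therefore depend on the scaling.

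**Figure D4:**
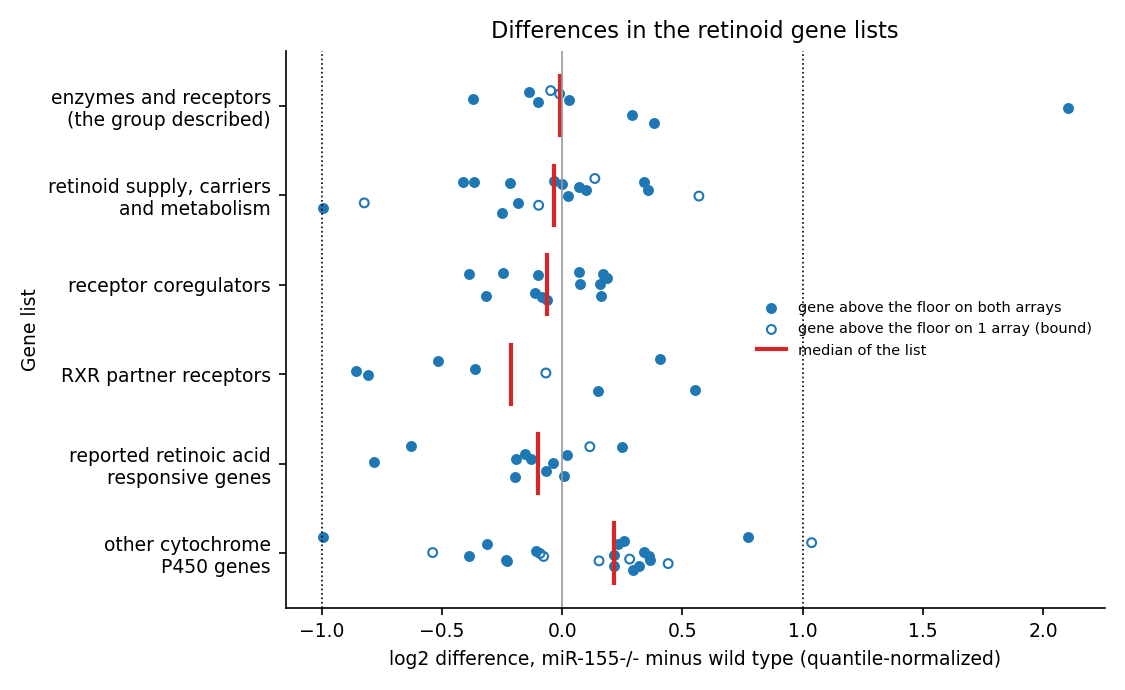
Differences between knockout and wild type (log2, quantile-normalized) of the measured genes of each list, with open circles for bounds, a red line at each median and dotted lines at 2-fold. Cyp26b1 is the point at 2.10, and the medians run from -0.21 for RXR partner receptors to 0.22 for other cytochrome P450 genes.

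Cytochrome P450 genes outside the CYP26 family served as a comparison for the enzyme class. Of 71 on the array, 23 were measured, 14 higher and 9 lower, with a median of 0.22 beside 0.010 for all genes. These counts hold 7 bounds, and 51.5% of all measured genes were higher. In the deposited values 21 were higher and 2 lower, at a median of 0.51 beside 0.54 for all genes. With scaling on hybridisation controls 16 of 24 were higher, at a median of 0.32 beside 0.23. Cyp2c70 alone passed 2-fold, as a bound of at least 2.05-fold at 42.5 for wild type and 138.8 for the knockout. After it and Cyp1b1, the largest differences were those of Cyp4f16 (0.77, with -0.81 at its other probe set) and Cyp2e1, at least 1.45-fold lower.

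The genes beside Cyp26b1 on chromosome 6 had smaller differences, none past 2-fold. Of the 5 genes on the array on each side, 9 were measured, and their differences ran from -0.15 for Zfp638 to 0.65 for Rab11fip5, which had 2 of 2 probe sets higher. Exoc6b, the next gene on one side, had -0.096 with 2 of 2 probe sets lower. Dysf, on the other side, lay below the floor on both arrays (7.26 and 22.1). Paip2b, 3 places away, had 0.58 with 1 of 2 probe sets higher. Tex261, Nagk, Spr and Sfxn5 had differences from -0.066 to 0.095, and Emx1 one of 0.28.

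**Figure D5:**
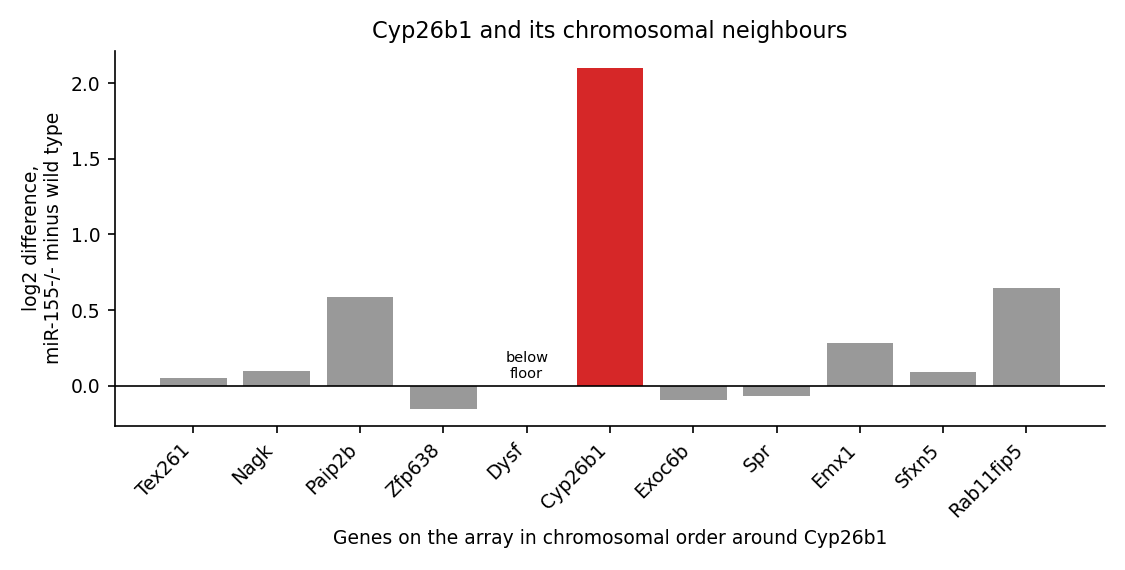
Difference between knockout and wild type (log2, quantile-normalized) of Cyp26b1 (red) and the 5 genes on the array on each side of it in chromosomal order (grey), without distances. Cyp26b1 reaches 2.10 and its measured neighbours lie between -0.15 and 0.65.

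The genes most like Cyp26b1 were taken as the 5 with the smallest distance to it over the 2 normalized log2 values, a likeness over 2 samples only. They were Slc30a1, a zinc exporter (239.7 for wild type and 531.7 for the knockout), Ctsk, the protease cathepsin K (245.6 and 523.1), Acss2, an acetyl-CoA synthetase (256.8 and 529.5), Chchd10, a mitochondrial protein (244.2 and 489.2), and Slc39a2, a zinc importer (289.2 and 593.4). Their distances ran from 0.68 to 0.79 log2 units and their differences from 1.002 to 1.149, beside 2.10 for Cyp26b1. As Cyp26b1 ranked 3 from the highest on the same values, its nearest genes were likely to have smaller differences. Nothing is read from this gap.

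Markers of the cell types that such cultures can hold differed in part between the arrays. In these bulk samples fewer cells of a type and less RNA per cell cannot be told apart. With 1 array per genotype, genotype cannot be told apart from the culture or the array either. All 10 dendritic cell markers were measured, with a summed normalized intensity of 40761 for wild type and 36351 for the knockout, 3 higher and 7 lower. Itgax, which encodes CD11c, had a difference of 0.31, Cd209a one of 0.40 and Flt3 one of at least 0.39. The dendritic cell transcription factor genes Irf8 and Zbtb46 had -0.66 and -0.43, and the chemokine receptor gene Ccr7 had -0.55. Irf4, another such factor gene, had -0.28 at the probe set used and 0.40 at the other. Cd74, H2-Aa and H2-Ab1 had smaller differences, from -0.18 to -0.054. All 9 macrophage and monocyte markers on the array were measured too, at sums of 48695 and 49108, 6 higher and 3 lower. The higher ones ran from 0.20 for Csf1r to 1.06 (2.08-fold) for the mannose receptor gene Mrc1. The lower ones were Cd14 (-0.43), Fcgr1 (-0.24) and Lyz2 (-0.097). The labels call the cells dendritic cells but name macrophages in the growth protocol, and markers of both were bright. Of 8 fibroblast and stromal markers 6 were measured, 3 higher and 3 lower, with 3 of the 6 as bounds. Thy1 was 2.17-fold lower (256.4 and 118.1), Col1a2 and Lum were lower too, and Col1a1, Pdgfra and Pdgfrb were higher. Col3a1 and Dcn lay below the floor on both arrays. Sums over all 8 listed genes, with those below the floor, were 778 and 603. Of 7 endothelial markers only Vwf and Kdr were measured, Vwf with a difference of 0.14 and Kdr at least 1.75-fold lower. Pecam1, Cdh5, Tek, Emcn and Tie1 lay below the floor on both arrays. The 5 measured mast cell and basophil markers and the 4 measured B and plasma cell markers were all lower in the knockout. Of the former 3 and of the latter 2 lay above the floor on the wild-type array only, so these could count only as lower. Sums over the lists were 3224 and 1663 for the former and 1375 and 338 for the latter. The immunoglobulin gene Ighm was 5.16-fold lower at the probe set used, and of its 8 measured probe sets 5 were lower and 3 higher. Jchain was 4.71-fold lower on 1 probe set, and the protease genes Mcpt8 and Cpa3 were at least 2.68-fold and 2.21-fold lower. Of 7 granulocyte markers 6 were lower, 1 of them as a bound. The sums of 6886 and 7831 are carried by the higher one, S100a8, at 4517 and 6093. Of 6 T and NK cell markers 2 were measured, both higher, while the sums over the list were 353 and 334. Cd4 lay above the floor in the knockout only, so it could count only as higher, and Cd8a had 1 of 2 probe sets higher. No marker was at 0. The part of these markers in the differences of Cyp26b1 and the other members was not tested.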

How the data were processed

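Gene expression was measured on 2 Affymetrix arrays, 1 per genotype. The values the authors deposited are linear intensities, 1 per array for 45101 probe sets; how they were computed from the scans is not given in the sources used. The medians differed by 34.1%, over the limit of 10% set for scaling, so log2 intensities of all but 64 control probe sets were quantile normalized, and values under the median (67.6) were set to it. Of the probe sets, 34945 named 1 gene, 932 several and 9160 were unnamed here. The probe set with the highest mean stood for a gene. With 1 array per group no p-value was computed, only a size rule of 2-fold, and the number of arrays limits the precision. The members and lists were chosen with earlier results of these data known. The genes named are all members, up to 4 per pathway list with the largest differences and any of these lists past 2-fold, the 5 genes nearest to Cyp26b1, its neighbours in the reference gene table (GRCm38.p6), Mir155hg, and markers and Fabp5 as examples chosen after their values were seen. Quantile scaling and the 2-fold rule were tested on simulated data with changes placed on bright probe sets only. The simulated arrays differed by a constant shift, and their noise was set below the probe set SD of these data. This was a check of the code and does not measure the error of these arrays. Bounds, the choice of probe set and the gene lists were not tested in this way. The tools were Python 3.11.15, numpy 2.4.6, pandas 2.3.3 and statsmodels 0.14.6 for loess. Alternatives changed the scaling, the floor and the choice of probe sets.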

Additional observations from a re-analysis of the deposited data

How the results depend on the processing

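Alternatives changed the scaling (deposited values, centring on the median, hybridisation controls, loess), the floor (none, or the 75th percentile) and the probe sets (the mean of a gene's probe sets, or none ending in _x_at or _s_at). Under these 8 alternatives Cyp26b1 stayed higher in the knockout and past 2-fold, from 1.79 with the floor at the 75th percentile to 2.69 in the deposited values; the higher floor of 221 lies above its wild-type signal, so the former is a bound. The deposited values, which keep the 0.54 shift of the median gene, moved the median of the measured members to 0.59, of retinoid supply genes to 0.35, of coregulators to 0.54 and of reported retinoic acid responsive genes to 0.41. With the floor at the 75th percentile 5 members were measured, at a median of 0.29. Without a floor 3 members passed 2-fold: Cyp26b1, Cyp26a1 (1.20) and Rara (-2.39), as did 2592 of the 18193 genes, and Cyp26b1 then ranked 332 from the highest, against 1 to 3 under the other settings. All measured genes past 2-fold numbered 141 as reported, 867 in the deposited values, 214 with scaling on hybridisation controls and 36 with the higher floor. Of the other values, 9 of 54 for single members moved by more than the probe set SD and 45 did not. Values of single members with several probe sets, Rdh10, Rarg and Rxra, depend on the probe set. No paired analysis was possible because each genotype has 1 array, and leaving out a replicate was not possible for the same reason. Signals under the floor limit what can be said of Cyp26a1, Rara and Rarb.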
